A study of Mus musculus with 24 samples.

Results

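The miR-99/100 family of microRNAs was followed here through its 6 mature arms, the 5p and the 3p product of miR-99a, miR-99b and miR-100. They were taken by name (mmu-miR-99a-5p, mmu-miR-99a-3p, mmu-miR-99b-5p, mmu-miR-99b-3p, mmu-miR-100-5p and mmu-miR-100-3p, written below without the species prefix) from a table of 1907 mature miRNA names, and all 6 were among the 558 that passed the filter on low counts. The tissue was subcutaneous adipose tissue of mice, the white fat under the skin. One set of mice was fed a control diet and the other a high-fat diet, and tissue was taken after 1 day, after 1 week or after 3 weeks. Each of the 6 groups of diet and time held 4 libraries of small RNA, 24 in all. The sources used here do not give the strain, sex or age of the mice or the make-up of the diets. The labels do not state whether each library is from its own animal, and p-values then reflect only how these samples vary, which may be technical variation.

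A miRNA is cut from a hairpin RNA, and 1 of its arms is usually kept by an Argonaute protein while the other is degraded. The kept arm pairs with messenger RNAs mainly through its seed, the bases near its 5′ end, and lowers their translation and stability. The miR-99/100 family is best known for restraining growth by repressing mTOR and the receptor of insulin-like growth factor 1, parts of the nutrient and insulin signalling that fat cells use when they store lipid. Each of its genes lies upstream of a let-7 gene and a miR-125 gene, an arrangement kept across animals.

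The 5p arms are shown first because a single seed defines the family. Sequences and positions are those of RefSeq on GRCm38, the assembly called mm10, and all 6 arms were matched by name. They run 5′ to 3′, and capitals mark the seed, bases 2 to 8.
miR-99a-5p: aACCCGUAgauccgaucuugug
miR-100-5p: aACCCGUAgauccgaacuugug
miR-99b-5p: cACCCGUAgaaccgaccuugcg
Among 1679 mature names in the RefSeq table, these 3 were the only ones with the seed ACCCGUA. Counted from the 5′ end, miR-99a-5p and miR-100-5p differ at 1 of 22 positions (U16A, with the base of miR-99a-5p first). MiR-99a-5p and miR-99b-5p differ at 4 positions (A1C, U11A, U16C and U21C). No other mature name of the same length came within 2 differences of any member. The sources used here do not give how reads that fit more than 1 of these arms were assigned, so the split between miR-99a-5p and miR-100-5p rests on 1 base and is uncertain to that extent.

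The 3p arms are shown because they do not share a single seed.
miR-99a-3p: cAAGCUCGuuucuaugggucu
miR-99b-3p: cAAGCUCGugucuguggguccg
miR-100-3p: aCAAGCUUgugucuauagguau
The arms miR-99a-3p and miR-99b-3p have the seed AAGCUCG, which no other mature name in the table has. MiR-100-3p starts 1 base earlier, and no other name has its seed CAAGCUU. With that base skipped, 17 of its next 21 bases match miR-99a-3p. The hairpins of Mir99a and Mir100 show both arms, in capitals, on either side of the loop.
Mir99a: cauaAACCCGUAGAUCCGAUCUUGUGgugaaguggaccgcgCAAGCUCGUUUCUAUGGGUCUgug
Mir100: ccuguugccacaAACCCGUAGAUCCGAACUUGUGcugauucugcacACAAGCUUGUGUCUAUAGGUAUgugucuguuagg

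The 3 genes lie on different chromosomes, all on the plus strand. MiR-99a-5p is at chr16:77598940-77598961 and miR-99a-3p at chr16:77598977-77598997, in an intron of the long noncoding RNA gene Mir99ahg, per GENCODE M21. MiR-100-5p is at chr9:41531437-41531458 and miR-100-3p at chr9:41531471-41531492, in an intron of 3110039I08Rik, the gene that RefSeq calls Mir100hg. An exon of the noncoding gene Gm48742 runs over both miR-100 arms on the opposite strand. MiR-99b-5p is at chr17:17830194-17830215 and miR-99b-3p at chr17:17830232-17830253, in an intron of the protein-coding gene Spaca6. The let-7 gene starts 732 bases after miR-99a-5p, counted to let-7c-5p, and 172 bases after miR-99b-5p, counted to let-7e-5p. In the miR-100 cluster let-7a-2-3p starts 5340 bases after miR-100-5p. The miR-125 arms lie 47339 bases after miR-99a-5p, 50503 bases after miR-100-5p and only 623 bases after miR-99b-5p.

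The libraries held 1992607 miRNA counts (high-fat day 1 replicate 4) to 16299177 (control week 1 replicate 4). Depth went with diet. At day 1 it was 5357554 to 11318325 counts on the control and 1992607 to 5277986 on the high-fat diet. At week 1 it was 5315057 to 16299177 and 2542354 to 4145974, so the diets overlapped at neither time. At week 3 it was 4862462 to 7096603 and 3109613 to 11973440, with overlap. The part of depth in the diet differences was not tested. All 7 adipocyte-enriched marker miRNAs of a fixed list were present, at a summed 129016 to 288792 CPM (counts scaled to 1000000 per library, with TMM size factors). MiR-365-3p was at 0 in some libraries. Skeletal muscle markers, with miR-1b-5p at 0 in all libraries and miR-208b-3p in some, summed to at most 80427 CPM, and leukocyte markers from 5326 to 51937 CPM. In bulk tissue, fewer cells of a type and less RNA per cell cannot be told apart.

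The 5p arms carried nearly all of the family's counts, and miR-99a-5p alone carried most of them. MiR-99a-5p averaged 81185 ± 17194 CPM over the 24 libraries (SD) and ranked 2nd to 5th among all names. MiR-100-5p averaged 7190 ± 1269 CPM and ranked 19th to 26th, and miR-99b-5p averaged 2895 ± 581 CPM and ranked 31st to 51st. MiR-99a-5p made up 85.4% to 92.8% of the family's counts, miR-100-5p 4.90% to 10.1% and miR-99b-5p 2.10% to 4.21%. Together the 6 arms held 6.28% of all counts in the library where they were lowest, high-fat day 1 replicate 4, and 11.5% in the highest, control week 3 replicate 4.

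The 3p arms were far lower. MiR-99b-3p was at 205 ± 38.4 CPM (SD, 24 libraries), miR-99a-3p at 13.4 ± 3.45 CPM and miR-100-3p at 2.06 ± 0.977 CPM. All arms are 21 or 22 bases long, so levels per length keep the same order. That order, from miR-99a-5p through miR-100-5p, miR-99b-5p, miR-99b-3p and miR-99a-3p to miR-100-3p, was the same in 24 of 24 libraries. The ranges of neighbouring members over all libraries did not overlap. MiR-100-3p was counted 0 to 51 times per library and was at or under a floor of 3 counts in 2 libraries. For a single library the expected counting error on the log2 scale, at the median depth, was 0.0023 for miR-99a-5p and 0.01 for both miR-100-5p and miR-99b-5p. It was 0.05 for miR-99b-3p, 0.17 for miR-99a-3p and 0.46 for miR-100-3p. The spread within groups was 0.28 for miR-99a-5p, 0.23 for miR-100-5p, 0.24 for miR-99b-5p, 0.26 for miR-99b-3p, 0.33 for miR-99a-3p and 0.60 for miR-100-3p on the same scale. The spread of miR-100-3p leaves out high-fat day 1, the group with a count of 0. Over all 6 groups, with a count of about 0.5 added, it was 1.11. All 6 spreads exceeded the counting error, by far for the 5p arms. For miR-100-3p the spread and the counting error do not cover the same libraries, so its excess is uncertain. Counting errors cover counting only, since the sources mention no molecular identifiers.

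**Figure D1:**
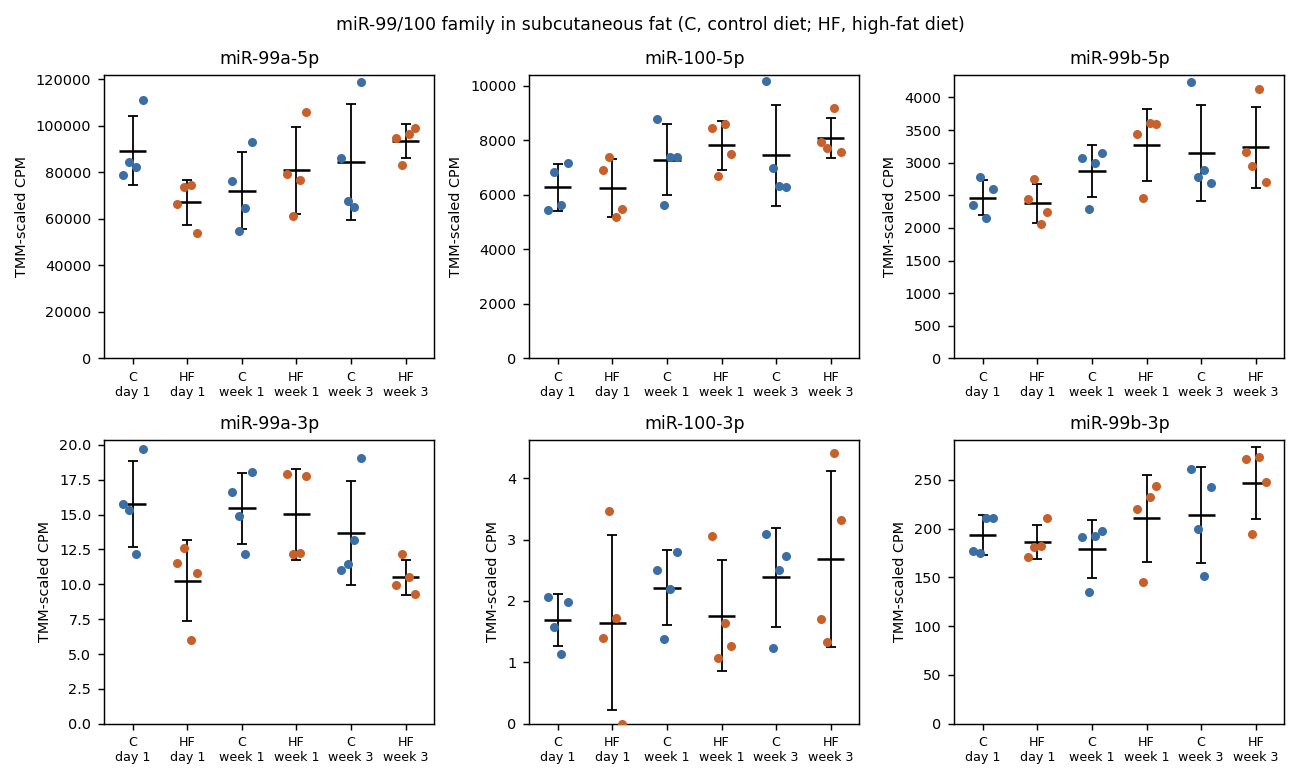
Level of each arm in TMM-scaled CPM (vertical axis, from 0) in the 6 groups, with control in blue and high-fat in orange. Points are libraries, and bars are the mean and SD of 4 libraries. The high-fat day 1 points of miR-99a-5p, 53736 to 74396 CPM, all lie below the control day 1 points, and miR-100-3p is at 0 in 1 library.

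After 1 day of feeding, the miR-99a arms were at lower levels in the high-fat libraries, and the miR-99b and miR-100 arms were close to the control level, with no arm past the test. MiR-99a-5p was at 78852, 84469, 82271 and 111275 CPM in control replicates 1 to 4. In the high-fat replicates it was at 66486, 73579, 74396 and 53736 CPM. Every high-fat library lay below every control library, with means of 67049 ± 9560 and 89217 ± 14886 CPM (SD, n = 4 each). The fitted log2 fold change was −0.41 ± 0.20 (SE), with an unadjusted p of 0.0468 and an adjusted p of 0.982 over all tested miRNAs in edgeR's quasi-likelihood test. Of the 558 tested miRNAs 1.25% were, like this arm, lower with no overlap between the groups. Without control replicate 4, the highest, the log2 fold change was −0.26, and without high-fat replicate 4, the lowest, it was −0.29.

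Its minor arm pointed the same way at a far lower level, with 64 to 191 counts per control and 22 to 66 per high-fat library. MiR-99a-3p was at 15.8, 15.4, 12.2 and 19.7 CPM in the control replicates of day 1 and at 11.6, 12.6, 6.01 and 10.8 CPM in the high-fat replicates. The groups overlapped, since the lowest control value lay below the highest high-fat value. The log2 fold change was −0.62 ± 0.24 (SE), the 2nd smallest p of 558 (unadjusted p 0.0162, adjusted p 0.982 in edgeR). High-fat replicate 3 rested on 28 counts, with an exact 95% Poisson interval of 3.99 to 8.69 CPM, and without that library the log2 fold change was −0.41.

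The other arms at day 1 had fitted log2 fold changes of −0.05 ± 0.18 (SE) for miR-99b-5p, −0.06 ± 0.19 for miR-99b-3p, −0.01 ± 0.17 for miR-100-5p and 0.05 ± 0.51 for miR-100-3p. The 95% interval for miR-100-5p ran from −0.36 to 0.35, and that for miR-100-3p from −1.01 to 1.104. No tool of edgeR, DESeq2 and limma-voom called any of the arms at an adjusted p of 0.05 (0 of 6 in each), and edgeR called 0% of the 558 tested. Unadjusted p-values under 0.05 in edgeR were found for 2 of 6 arms and for 17 of the 558 tested miRNAs. The median of the 6 fitted values was −0.06, beside −0.01 for all tested miRNAs. Summed endothelial markers were at 78724 to 90646 CPM in the control and 52106 to 94034 CPM in the high-fat libraries. These were 2 of 3 listed arms, since miR-126a-5p was at 0 in every library. The 4 fibroblast markers summed to 11348 to 16272 CPM in the control and 9202 to 14368 CPM in the high-fat libraries. The 7 leukocyte markers summed to 17384 to 40276 and 23779 to 51937 CPM, with none at 0, and the part of these cells in the miR-99a values was not tested.

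After 1 week, levels on the 2 diets overlapped for every arm, while 0.896% of all tested were higher and 1.97% lower with no overlap. MiR-99a-5p was at 76300, 54824, 64629 and 92904 CPM in the control replicates and at 79146, 61289, 76748 and 106015 CPM in the high-fat replicates. Its log2 fold change was 0.16 ± 0.20 (SE). It was 0.03 without high-fat replicate 4 and 0.35 without control replicate 4, the highest library of each diet. MiR-99b-5p had 0.19 ± 0.18, miR-99b-3p 0.23 ± 0.19, miR-100-5p 0.10 ± 0.17, miR-99a-3p −0.05 ± 0.23 and miR-100-3p −0.32 ± 0.50. None of the 6 passed in edgeR (0% of all tested), DESeq2 or limma-voom. An unadjusted p under 0.05 in edgeR was found for 0 of 6 arms and for 79 of the 558 tested. The smallest adjusted p of the 6 arms was 0.562, that of miR-99b-3p. The median of the members was 0.13, beside −0.02 for all tested.

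After 3 weeks the arms of miR-99a pointed in opposite directions, again within the spread of the libraries. No arm was without overlap between the diets, as 0.358% (higher) and 0.717% (lower) of all tested were. MiR-99a-5p was at 86206, 67490, 65184 and 118783 CPM on the control diet and at 94901, 83155, 96563 and 99232 CPM on the high-fat diet. The high-fat libraries lay close together, with an SD of 7099 CPM against 24770 CPM in the control libraries. MiR-99a-3p was at 11.0, 11.5, 13.1 and 19.1 CPM on the control diet and at 9.98, 12.2, 10.5 and 9.28 CPM on the high-fat diet. The log2 fold changes were 0.15 ± 0.20 (SE) for miR-99a-5p and −0.38 ± 0.24 for miR-99a-3p. Without control replicate 4, the highest for both arms, they were 0.41 and −0.13, and without control replicate 3 that of miR-99a-5p was 0.04. MiR-99b-5p had 0.04 ± 0.18, miR-99b-3p 0.21 ± 0.19, miR-100-5p 0.12 ± 0.17 and miR-100-3p 0.25 ± 0.47. No arm of the 6 passed in edgeR (0% of all tested), DESeq2 or limma-voom. An unadjusted p under 0.05 in edgeR was found for 0 of 6 arms and for 10 of the 558 tested. The median was 0.13 for the members and −0.05 for all tested.

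With the 3 times averaged (12 libraries on each diet), miR-99a-3p was the arm farthest from 0. Its log2 fold change was −0.35 ± 0.14 (SE), with means of 14.96 CPM on the control diet and 11.93 CPM on the high-fat diet, with an unadjusted p of 0.0183 and an adjusted p of 0.993 in edgeR. MiR-99a-5p had −0.03 ± 0.11, miR-99b-5p 0.06 ± 0.10, miR-99b-3p 0.13 ± 0.11, miR-100-5p 0.07 ± 0.10 and miR-100-3p −0.01 ± 0.29. For miR-100-5p the 95% interval ran from −0.13 to 0.28, and for miR-99a-5p from −0.27 to 0.20. In the joint test of whether the diet difference varied between the times, miR-99a-5p had the smallest unadjusted p of the family, 0.0822 (adjusted p 0.567 in edgeR). In both tests 0 of 6 arms passed in edgeR (0% of all tested), DESeq2 and limma-voom. Unadjusted p-values under 0.05 in edgeR numbered 1 in the averaged test and 0 in the joint test, against 18 and 41 over the 558 tested.

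**Figure D2:**
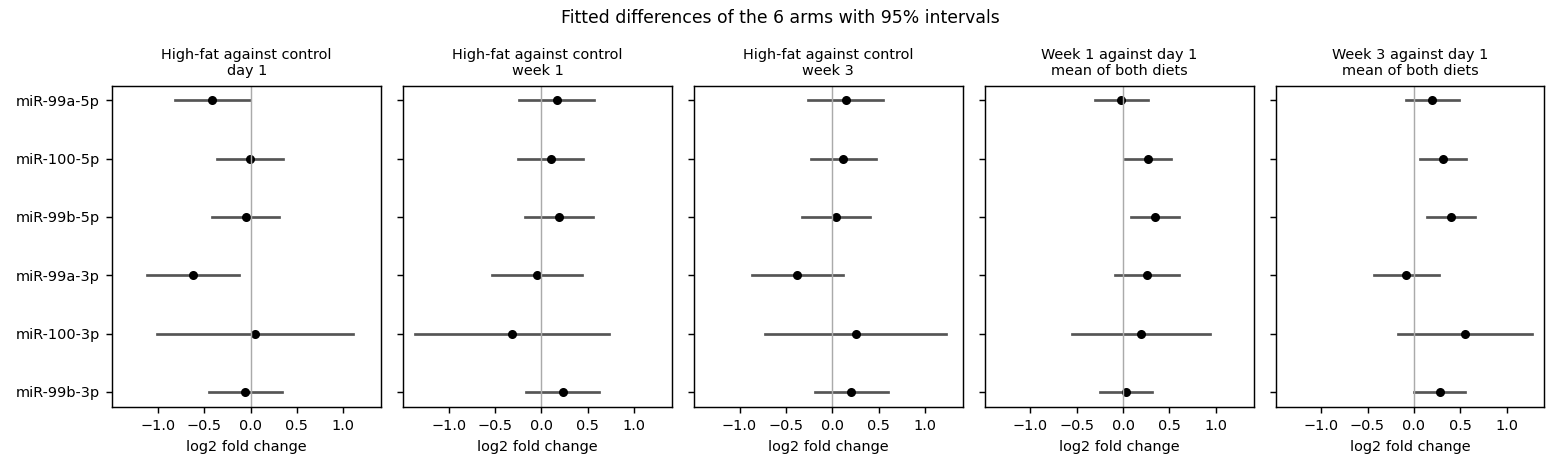
Fitted log2 fold changes (horizontal axis) of the 6 arms in 5 comparisons, as points with 95% intervals from edgeR. The interval of miR-99b-5p lies above 0 in both comparisons with day 1, and the intervals of both miR-99a arms lie below 0 for high-fat against control at day 1, while none of these passed after adjustment over all tested miRNAs.

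Over time miR-99b-5p and miR-100-5p had higher mean levels at week 1 and week 3 than at day 1 on both diets, with no arm past the threshold in edgeR. MiR-99b-5p was at 2355, 2773, 2146 and 2589 CPM in the control libraries of day 1 and at 2440, 2751, 2067 and 2241 CPM in the high-fat ones. At week 1 it was at 3070, 2284, 2990 and 3142 CPM on the control diet and at 3437, 2454, 3615 and 3589 CPM on the high-fat diet. At week 3 the control libraries held 4243, 2781, 2885 and 2690 CPM and the high-fat libraries 3158, 2954, 4130 and 2700 CPM. The times overlapped on both diets: replicate 2 at week 1 and replicate 4 at week 3 lay among the day 1 values of their diet.

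For week 3 against day 1, both diets together (8 libraries against 8), miR-99b-5p had a log2 fold change of 0.40 ± 0.12 (SE), or 1.32-fold, with a 95% interval of 0.14 to 0.66. Its unadjusted p was 0.00394 and its adjusted p 0.0508 in edgeR, just outside the threshold of 0.05. DESeq2 gave an adjusted p of 0.0284 and limma-voom with sample quality weights 0.037, both inside it. Over all alternative settings the adjusted p ran from 0.0284 to 0.185, and without control week 3 replicate 1, the highest library, it was 0.151 with a log2 fold change of 0.26. Without high-fat week 3 replicate 3 the log2 fold change was 0.29.

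MiR-100-5p followed closely. It was at 5435, 6837, 5634 and 7164 CPM in the control and 6918, 7370, 5173 and 5491 CPM in the high-fat libraries of day 1. At week 1 the control libraries held 8790, 5626, 7371 and 7376 CPM and the high-fat libraries 8467, 6688, 8587 and 7494 CPM. At week 3 they held 10161, 6999, 6333 and 6273 CPM on the control diet and 7933, 7706, 9175 and 7552 CPM on the high-fat diet. On the high-fat diet every week 3 library lay above every day 1 library, and on the control diet the times overlapped. Over both diets, its fold change from day 1 to week 3 was 0.31 ± 0.12 (SE) on the log2 scale, with an adjusted p of 0.0966 in edgeR, and it was 0.17 without control week 3 replicate 1.

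The remaining arms did not pass the threshold either. From day 1 to week 3, both diets together, the log2 fold changes were 0.28 ± 0.13 (SE) for miR-99b-3p, 0.20 ± 0.14 for miR-99a-5p, 0.55 ± 0.35 for miR-100-3p and −0.08 ± 0.17 for miR-99a-3p. Without control week 3 replicate 4 the value of miR-99a-5p was 0.04, and without control week 3 replicate 1 that of miR-99b-3p was 0.18. In edgeR 0 of 6 arms passed, against 7.17% of all tested miRNAs. An unadjusted p under 0.05 was found for 2 of 6 arms and for 156 of the 558 tested. In DESeq2 1 passed and in limma-voom 1 passed, miR-99b-5p in each, while over the 558 tested these tools called 71 and 99. The median of the members was 0.29, beside 0.05 for all tested. Fibroblast markers, 4 of 4 detected, summed to 9202 to 16272 CPM at day 1 and 12803 to 18647 CPM at week 3. The endothelial sums were 52106 to 94034 CPM at day 1 and 77212 to 119260 CPM at week 3. Skeletal muscle markers summed to 24 to 3022 CPM at day 1 and 1225 to 17156 CPM at week 3. The part of these cells in the values over time was not tested. Without the 3 libraries richest in muscle markers, 1 of them from week 3, the log2 fold change of miR-99b-5p was 0.44, with an adjusted p of 0.0289 in edgeR.

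The means of both arms at week 1, 3073 CPM for miR-99b-5p and 7550 CPM for miR-100-5p, were closer to those of week 3, 3193 and 7766 CPM, than to those of day 1, 2420 and 6253 CPM. For week 1 against day 1, both diets together, miR-99b-5p had 0.34 ± 0.12 (SE, adjusted p 0.125 in edgeR) and miR-100-5p 0.27 ± 0.12 (adjusted p 0.205), while miR-99a-5p had −0.02 ± 0.14. Without control week 1 replicate 1 the value of miR-100-5p was 0.16, and without high-fat week 1 replicate 4 that of miR-99a-5p was −0.16. There, 0 of 6 arms passed in edgeR, against 0.896% of all tested. An unadjusted p under 0.05 was found for 2 of 6 arms and for 118 of the 558 tested. DESeq2 called 0 of 6, and limma-voom called 1, miR-99b-5p with an adjusted p of 0.0422. Over the 558 tested these tools called 37 and 35. From week 1 to week 3 no arm passed in edgeR (0% of all tested), DESeq2 or limma-voom. An unadjusted p under 0.05 in edgeR was found for 0 arms and for 47 of the 558 tested. MiR-99b-5p had 0.06 ± 0.12, miR-100-5p 0.04 ± 0.12, miR-99a-5p 0.22 ± 0.14 and miR-99a-3p −0.34 ± 0.17 in that step. The time comparisons share their libraries with each other, so they are not independent.

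Split by diet, miR-99a-5p differed in sign between the diets from day 1 to week 3. On the high-fat diet it went from 67049 ± 9560 to 93463 ± 7099 CPM (SD, n = 4 each), a log2 fold change of 0.48 ± 0.20 (SE), with an adjusted p of 0.254 in edgeR and no overlap between the times. On the control diet it was at 89217 ± 14886 and 84416 ± 24770 CPM, a log2 fold change of −0.08 ± 0.20 that ran from −0.35 to 0.0087 with single libraries left out. On the high-fat diet 2 of 6 arms, miR-99a-5p and miR-100-5p, were higher with no overlap, against 7.35% of all tested, and on the control diet 0 of 6 against 3.76%. In edgeR 0 of 6 arms passed on the high-fat diet (0% of all tested) and 0 on the control diet (0.358% of all tested). An unadjusted p under 0.05 was found for 4 of 6 arms on the high-fat diet, where 88 of the 558 tested had one. On the control diet it was found for 0 of 6 arms and 83 of the 558. DESeq2 and limma-voom called 0 arms on either diet. On the high-fat diet 6 of 6 arms had a positive value, beside 284 of the 558 tested, with a median of 0.43 beside 0.00. That of miR-99a-3p was near 0, at 0.04 ± 0.24 (SE). On the control diet 4 of 6 were positive, beside 317 of the 558, with a median of 0.20 beside 0.09. The high-fat libraries of day 1 enter both this step and the diet comparison at day 1, so these are not independent. The diets' difference in this step was tested only within the joint test above, where miR-99a-5p did not pass.

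MiR-99b-5p and miR-100-5p kept a nearly fixed proportion in all libraries, although they come from different chromosomes. For every 100 counts of miR-100-5p there were 40.3 ± 3.35 counts of miR-99b-5p (SD over 24 libraries), with a lowest value of 34.9 and a highest of 47.9. The group means ran from 38.3 in high-fat day 1 to 42.5 in control week 3. The SD of their log2 ratio was 0.12, the smallest of the 15 pairs of members. Among 182 other miRNAs with a mean of at least 100 CPM, the one closest to miR-99b-5p by this measure was its cluster neighbour let-7e-5p, with an SD of 0.17. Next came miR-125b-2-3p of the miR-99a cluster, with 0.19, and miR-23a-3p, with 0.19. A median miRNA of the 182 had 0.42. The closest to miR-100-5p were miR-195a-3p, with 0.18, miR-125b-2-3p, with 0.18, and let-7e-5p, with 0.19. A ratio within a library does not depend on its scaling, but both members are still counted in the same 24 libraries.

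**Figure D3:**
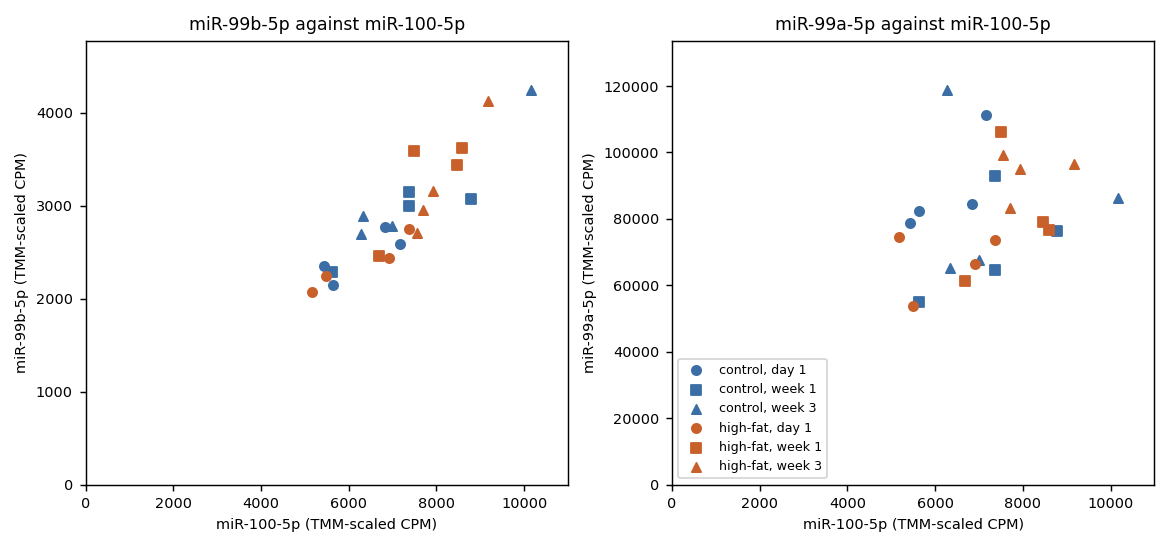
Levels of miR-99b-5p (left) and miR-99a-5p (right) against miR-100-5p, in TMM-scaled CPM, 1 point per library, with colour for diet and shape for time. On the left the points lie near a line through the origin, at 34.9 to 47.9 counts of miR-99b-5p per 100 of miR-100-5p, and on the right they scatter over a ratio of 8.48 to 18.9.

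MiR-99a-5p, although 1 base from miR-100-5p, kept no such proportion to it. Its count was 8.48 to 18.9 times that of miR-100-5p, with both extremes among the control libraries of week 3. The SD of the log2 ratio was 0.32 over the 24 libraries, and 0.32 for the ratio to miR-99b-5p. Of the members, the closest to miR-99a-5p was miR-99b-3p, with 0.23. Among the 182 other miRNAs the closest were miR-218-5p, with 0.21, miR-125b-2-3p, a cluster partner of miR-99a-5p, with 0.23, and miR-214-5p, with 0.24. The nearest cluster neighbour of miR-99a-5p, let-7c-5p, had 0.33 and ranked 27th of 182. Replicate 4 had the highest miR-99a-5p level in 5 of 6 groups, and in the sixth, high-fat day 1, it had the lowest. Nothing in the labels says that a replicate number marks a shared batch. At day 1 the ratio of miR-99a-5p to miR-100-5p was 12.4 to 15.5 in the control libraries and 9.61 to 14.4 in the high-fat libraries. Over the 3 times, the mean diet difference of its log2 value was −0.10 (exact stratified permutation p 0.434, two-sided, adjusted p 0.565). For miR-99a-5p to miR-99b-5p this difference was −0.08 (exact permutation p 0.529, adjusted p 0.577).

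The ratio between the arms of a hairpin compares products of 1 precursor within a library, and the 3 hairpins differed widely in it. The count of miR-99a-5p was 3658 to 12163 times that of miR-99a-3p, with a median of 5739. For miR-100 the ratio ran from 2053 to 5702 in the libraries with any count of miR-100-3p. In high-fat day 1 replicate 4, where miR-100-3p had a count of 0, it was at least 3711, taken against a floor of 3 counts in that library. MiR-99b-5p was only 10.2 to 19.0 times its 3p arm, with a median of 15.1, so miR-99b kept the largest share of its 3p arm in every library.

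The arm ratio of miR-99a was the only measure of the 6 ratios and shares with an unadjusted p under 0.05 in a test of diet. The measures were computed with a pseudocount of 0.5, and each was tested for diet and for time, 12 tests in all. At day 1 the miR-99a ratio was 4980, 5470, 6708 and 5624 in the control and 5706, 5772, 12163 and 4843 in the high-fat libraries. At week 1 it was 4556, 3658, 5288 and 5137 on the control diet and 4389, 4998, 6197 and 5885 on the high-fat diet. At week 3 it was 7750, 5854, 4934 and 6194 on the control diet and 9390, 6736, 9126 and 10504 on the high-fat diet. The diets overlapped at each time, with 3 of 4 high-fat libraries above all controls at week 3. The mean difference of the log2 ratio over the 3 times was 0.32, or 1.25-fold, with an exact stratified permutation p of 0.0192 (two-sided) and an adjusted p of 0.23 over the 12 tests. With a pseudocount of 5 counts, which lowers this ratio more in shallow libraries, the difference was 0.25, with an exact permutation p of 0.066.

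None of the other measures had an unadjusted p under 0.05 for diet. The log2 arm ratio differed by −0.07 for miR-99b (exact permutation p 0.43) and by 0.31 for miR-100 (exact permutation p 0.348), with an adjusted p of 0.565 for both. The miR-100 value rests on high-fat day 1 replicate 4, the library with a miR-100-3p count of 0: it was 0.07 without that library and −0.14 with a pseudocount of 5 counts. The family's share of all counts differed by −0.01 on the log2 scale (exact permutation p 0.931, adjusted p 0.931). That mean joins values of opposite sign, −0.34 at day 1, 0.20 at week 1 and 0.11 at week 3, where the SD within groups was 0.21. At day 1 the family held 9.28%, 10.5%, 7.78% and 11.4% of all counts in the control and 8.22%, 8.69%, 7.59% and 6.28% in the high-fat libraries, which overlapped. From day 1 to week 3 the log2 arm ratio of miR-99a differed by 0.26 (exact permutation p 0.173), and the family's share by 0.17 (exact permutation p 0.169). All 6 tests over time had an adjusted p of 0.565.

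**Figure D4:**
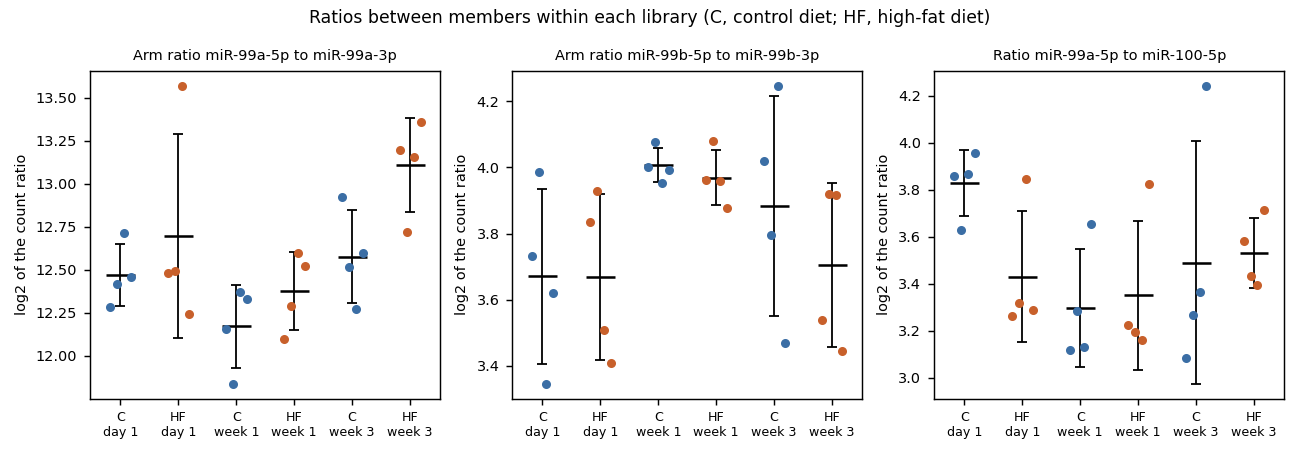
Log2 of count ratios within each library (vertical axis, not from 0; the miR-99a arms, the miR-99b arms, and miR-99a-5p to miR-100-5p, from left to right) in the 6 groups, with control in blue and high-fat in orange, points for libraries and bars for mean and SD of 4. For miR-99a the high-fat mean lies above the control mean at each time, by 0.23, 0.21 and 0.53.

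The cluster partners, let-7 and miR-125 arms encoded near the 3 genes, were taken as a list of 12 arms, all tested. Let-7 miRNAs are known for holding back proliferation and insulin signalling, and miR-125 miRNAs for repressing genes of proliferation and differentiation. The list includes let-7c-2-3p, which lies on chromosome 15 and not in the miR-99a cluster. Let-7a-5p, let-7c-5p and miR-125b-5p have several genomic copies, so their counts cannot be given to 1 cluster. Of the 12, 0 passed in edgeR in any of the 10 comparisons, against the shares of all tested miRNAs given above. At day 1, 9 of 12 had a negative fitted value for high-fat against control, with a median of −0.09 beside −0.01 for all tested. An unadjusted p under 0.05 was found for 0 of the 12, beside 17 of the 558 tested.

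At week 1, 12 of 12 partners had a positive value, with a median of 0.20 beside −0.02 for all tested. Of the 558 tested 79 had an unadjusted p under 0.05, and of the partners 1 did. That arm was miR-125b-1-3p of the miR-100 cluster, with a log2 fold change of 0.50 ± 0.19 (SE) and an adjusted p of 0.225 in edgeR. Leukocyte markers at week 1 summed to 11685 to 50224 CPM on the control and 5886 to 21675 CPM on the high-fat diet, and fibroblast markers to 10782 to 19701 and 11643 to 24334 CPM. Epithelial markers summed to 12758 to 16416 CPM on the control diet and to 39056, 8761, 22513 and 22469 CPM in high-fat replicates 1 to 4. Muscle markers summed to 539 to 18459 CPM and 130 to 80427 CPM, the highest in high-fat replicate 2. Their part in the partners' values was not tested. At week 3, 5 were positive and 7 negative, and let-7c-1-3p of the miR-99a cluster had −0.58 ± 0.28 (adjusted p 0.999 in edgeR). For week 1 against day 1 over both diets, 11 of 12 were positive, beside 318 of the 558 tested. Their median was 0.17, beside 0.08 for all tested. Let-7e-3p, beside miR-99b, was at 0.38 ± 0.17 (adjusted p 0.209 in edgeR). For week 3 against day 1, 9 of 12 were positive, with a median of 0.12 beside 0.05 for all tested. MiR-125a-3p, also beside miR-99b, had 0.32 ± 0.13 (adjusted p 0.127 in edgeR), and let-7a-5p 0.25 ± 0.11 (adjusted p 0.156). The members' and partners' values come from the same libraries. MiR-125a-5p, 623 bases from miR-99b-5p, kept a looser proportion to it than let-7e-5p did, with an SD of the log2 ratio of 0.46.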

How the data were processed

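Small RNA was sequenced from subcutaneous adipose tissue, and the authors deposited 1 table of raw counts per mature miRNA for the 24 libraries. Per the submitters' processing notes, FastQC, Trim Galore, Bowtie2, featureCounts and mm10 were used. The sources used here do not give their versions and settings or the miRNA annotation. Libraries were grouped by diet and time from the labels. Members were matched by name. The members and lists were chosen with earlier results of these data known.

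Counts were analysed in R 4.3.3 with edgeR 4.0.16 (TMM factors, robust quasi-likelihood test, 1 mean per group). The filter, filterByExpr set to at least 10 counts and a total of at least 15, kept 558 miRNAs and left out 0.0179% of the counts. Benjamini-Hochberg adjustment ran over the 558, with a threshold of 0.05. A floor of 3 counts was 0.184 to 1.51 CPM. Ratios were tested by exact permutation within strata in Python. Alternatives were DESeq2 1.42.0, limma 3.58.1 (voom), other scalings and filters, a replicate block, and libraries left out. The script was tested on simulated counts.

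Named miRNAs were the 6 members, the listed cluster partners, the 3 closest to each 5p arm by the SD of the log2 ratio, and markers. The main fit did not pair samples by replicate number, since the labels do not say that these numbers pair them. The correlations of deviations between same-numbered libraries of different groups ran from −0.59 to 0.54, and 21 of 60 were over 0.1. Their mean was −0.03, beside 0.01 for libraries with different numbers. A range this wide cannot decide whether the numbers pair the samples. No 2 libraries of the same group agreed within sampling noise.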

Additional observations from a re-analysis of the deposited data

Results flagged for a closer look

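In 72 groups of 4 libraries (6 members and 6 ratios or shares in 6 groups), 6 held a library far from the other 3 by Dixon's test, which marks about 1 group in 20 by chance. MiR-99b-5p stood apart in 3 groups. It was low in control week 1 replicate 2, at a log2 CPM of 11.16 against a group median of 11.57, and in high-fat week 1 replicate 2, at 11.26 against 11.78. It was high in control week 3 replicate 1, at 12.05 against 11.47, the library that moved its week 3 value most. MiR-99b-3p was low in control week 1 replicate 2 as well, at 7.08 against 7.59. The log2 ratio of miR-99a-5p to miR-100-5p was high in high-fat day 1 replicate 3, at 3.85 against a group median of 3.31, and in high-fat week 1 replicate 4, at 3.82 against 3.21. High-fat week 1 replicate 2 was also among the 3 libraries highest in skeletal muscle markers, and control week 3 replicate 1 among the 3 lowest in leukocyte markers. Their part in these values was not tested.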

How the results depend on the processing

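Of 665 values of 76 results under 11 other settings, 614 kept their direction and side of the threshold and 39 changed sign. In the 24 fits without 1 library, 0 members were called in every comparison. In week 3 against day 1, 1 member, miR-99b-5p, was called with TMM factors computed without the 6 members (adjusted p 0.0317), a mean CPM of at least 10 (0.0481), DESeq2 (0.0284), limma-voom (0.037) and the 3 libraries richest in muscle markers left out (0.0289), and in week 1 against day 1 with limma-voom (1 member). Its adjusted p was 0.0536 with RLE size factors, 0.109 with library totals, 0.185 with no filter and 0.128 without the 3 libraries poorest in leukocyte markers. With the replicate block it was 0.0663 at a log2 fold change of 0.39, the value for miR-99a-5p at day 1 was −0.37, and the block changed no call among the members. For why these calls differ, the cause was not tested.

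Over all miRNAs, calls for week 3 against day 1 numbered 40, against 71 with DESeq2, 99 with limma-voom, 19 with no filter, 22 without the leukocyte-poor libraries and 20 without control week 3 replicate 1. For week 1 against day 1 they numbered 5, against 37, 35 and 10 with DESeq2, limma-voom and the replicate block, 2 with RLE size factors, 8 with a mean CPM of at least 10, 3 without the leukocyte-poor and 0 without the muscle-rich libraries. For diet at week 1 they numbered 0, against 19 with limma-voom, 31 without the muscle-rich libraries and 22 without control week 1 replicate 4. For week 3 against day 1 on the high-fat diet they numbered 0, against 11 with DESeq2, 13 with limma-voom and 3 with a mean CPM of at least 10, and on the control diet 2, against 6 with DESeq2, 4 with limma-voom and 0 with the replicate block.

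Most log2 fold changes that changed sign were near 0, and that of miR-100-3p for diet at week 1 was −0.32. MiR-100-5p for diet at day 1 gave 0.031 with RLE size factors, 0.028 with library totals, 0.025 with TMM without the members, 0.041 with a mean CPM of at least 10, 0.031 with DESeq2, 0.059 with limma-voom and 0.045 with the 3 leukocyte-poor libraries left out. MiR-99b-3p for diet at day 1 gave 0.0028 with a mean CPM of at least 10 and 0.0024 with the 3 leukocyte-poor libraries left out. MiR-100-3p for diet at day 1 gave −0.19 with limma-voom. MiR-99a-3p for diet at week 1 gave 0.11 with limma-voom, 0.14 with the 3 muscle-rich libraries left out and 0.053 with the 3 leukocyte-poor libraries left out. MiR-100-3p for diet at week 1 gave 0.055 with the 3 muscle-rich libraries left out. MiR-99b-5p for diet at week 3 gave −0.023 with library totals. MiR-99a-5p for diet over the 3 times gave 0.0076 with RLE size factors, 0.030 with a mean CPM of at least 10, 0.0076 with DESeq2, 0.071 with limma-voom, 0.043 with the 3 muscle-rich libraries left out and 0.060 with the 3 leukocyte-poor libraries left out. MiR-100-3p for diet over the 3 times gave 0.033 with RLE size factors, 0.033 with DESeq2, 0.047 with limma-voom, 0.0058 with a replicate block and 0.10 with the 3 muscle-rich libraries left out. MiR-99b-3p for week 1 against day 1 gave −0.016 with RLE size factors, −0.0090 with no filter, −0.025 with a mean CPM of at least 10, −0.015 with DESeq2 and −0.049 with the 3 leukocyte-poor libraries left out. MiR-100-3p for week 1 against day 1 gave −0.14 with the 3 leukocyte-poor libraries left out. MiR-99b-5p for week 3 against week 1 gave −0.0011 with library totals and −0.040 with limma-voom. MiR-100-5p for week 3 against week 1 gave −0.021 with library totals and −0.019 with limma-voom. MiR-99a-3p for week 3 against day 1 on the high-fat diet gave −0.061 with library totals. The diet difference of the log2 miR-100 arm ratio was −0.14 with a pseudocount of 5 counts, and that of the family's share 0.044 with the muscle-rich libraries left out. The pseudocount has no bearing on the share.

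With 1 library left out, values of 18 results crossed 0. They ran from −0.11 to 0.049 for miR-99b-5p, −0.086 to 0.030 for miR-99b-3p, −0.070 to 0.093 for miR-100-5p and −0.47 to 0.35 for miR-100-3p in diet at day 1. They ran from −0.092 to 0.12 for miR-99a-3p in diet at week 1. They ran from −0.034 to 0.26 for miR-99b-5p and −0.12 to 0.48 for miR-100-3p in diet at week 3. They ran from −0.056 to 0.069 for miR-99a-5p and −0.16 to 0.11 for miR-100-3p in diet over the 3 times. They ran from −0.065 to 0.046 for miR-99b-3p and −0.073 to 0.40 for miR-100-3p in week 1 against day 1. They ran from −0.012 to 0.13 for miR-99b-5p and −0.036 to 0.12 for miR-100-5p in week 3 against week 1. They ran from −0.35 to 0.0087 for miR-99a-5p and −0.016 to 0.27 for miR-99b-3p in week 3 against day 1 on the control diet. They ran from −0.19 to 0.12 for miR-99a-3p in week 3 against day 1 on the high-fat diet. The diet difference ran from −0.12 to 0.0040 for the ratio of miR-99a-5p to miR-99b-5p and from −0.043 to 0.028 for the family's share. Without 1 library the miR-99a arm ratio differed by 0.23 to 0.37. Depth limits miR-100-3p and, in the shallow libraries, miR-99a-3p.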
